A study of Drosophila melanogaster with 9 samples.

Results

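The 6 genes described here, chk, Gyf, CG13144, CG5377, CG2076 and CG32195, were picked from 11982 genes because all 3 arrays of Mnt-overexpressing muscle lay apart from all 3 control arrays with a small spread. Their separation of Mnt from control arrays is therefore how they were chosen, and values of that comparison are given below as a description. RNA came from skeletal muscle of adult male Drosophila melanogaster, and 1 Affymetrix array was hybridised per sample. The 9 arrays are 3 of flies carrying UAS-Mnt, 3 of flies carrying UAS-Foxo and 3 of control flies, each an independent biological replicate per the labels. Each sample pooled RNA of flies (at least 15 males per group), which were collected within 24 hours of eclosion and kept at 25 °C with 20 flies per vial. The series title calls the overexpression muscle-specific. The sources used here name neither the driver of the UAS transgenes, nor the genotype of the controls, nor the age of the flies at dissection.

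Mnt is a transcriptional repressor that pairs with Max and binds the same DNA element as Myc and Max, whose activation of growth genes it opposes. Foxo is a transcription factor of the insulin pathway that enters the nucleus when insulin signalling is low. Of the 6 genes, chk (chaski) encodes a monocarboxylate transporter, of a family that carries lactate and pyruvate across membranes, and is known in Drosophila for its work in glia. Gyf encodes the fly GIGYF protein, which holds down translation and stability of target mRNAs with 4E-HP and Me31B. CG2076 belongs to the TMBIM family of membrane proteins, and its human relative GHITM lies in the mitochondrial inner membrane. CG32195 belongs to the family of ecdysteroid kinase-like proteins, most of which have no known substrate. No role is given here for CG13144 and CG5377. The Release 6 plus ISO1 MT annotation places CG2076 on the X chromosome, Gyf on chromosome 4, and the other 4 on the arms 2R (chk), 2L (CG13144), 3R (CG5377) and 3L (CG32195).

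All values are RMA signals on the log2 scale, so that a difference of 1 is a doubling. RMA brings the signals of single probes to a common distribution, but the array medians of the deposited values still ranged from 5.70 to 5.95. The mean of 20 sarcomere genes lay between 13.03 and 13.45 in all 9 arrays. The Mnt transcript itself lay at 9.85, 11.69 and 11.71 in Mnt replicates 1, 2 and 3, against 8.54, 8.41 and 8.50 in the Foxo arrays and 8.41, 8.57 and 8.45 in the controls. The foxo transcript lay at 11.95, 9.52 and 10.22 in the arrays labelled Foxo 1, 2 and 3, against 9.42, 9.50 and 9.05 in the controls, so the array labelled Foxo 2 lay only slightly above the highest control. In these bulk samples, fewer cells of a type and less RNA per cell cannot be told apart.

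In Mnt muscle, 5 of the 6 genes had a higher signal than in control muscle and 1, CG13144, had a lower signal. The differences were moderate, between 1.22 and 1.59 times. By the rule that chose them, all 6 had non-overlapping Mnt and control arrays, as did 8.91% of all genes, and nothing is read from that count. Over all genes, the fit called 0% in Mnt versus control (limma adjusted p under 0.05), and 3.54% of genes had an unadjusted p under 0.05; the rows of the 6 genes are not read as tests.

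The transporter gene chk had signals of 11.47, 11.46 and 11.62 in the Mnt arrays, 11.28, 11.17 and 11.19 in the Foxo arrays and 11.11, 11.16 and 11.06 in the controls. The Mnt arrays were the highest 3 of the 9, and the Foxo arrays lay just above the controls, separated from them by only 0.01. Mnt over control gave a log2 fold change of 0.41 ± 0.06 (SE, n = 3 per group), or 1.33 times.

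CG32195, the ecdysteroid kinase-like gene, had 8.54, 8.67 and 8.78 in the Mnt arrays, 8.38, 8.35 and 8.25 in the Foxo arrays and 7.996, 8.15 and 7.83 in the controls. The groups formed 3 separate steps, with the Foxo arrays between the Mnt and the control arrays. Its log2 fold change of 0.67 ± 0.10 (SE), or 1.59 times, was the highest of the 6.

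Gyf, the GIGYF gene, had the smallest SD of the 6 over the Mnt arrays and over the Foxo arrays, 0.04 and 0.03. Its signals were 13.04, 13.11 and 13.08 in the Mnt arrays, 12.70, 12.77 and 12.76 in the Foxo arrays and 12.74, 12.85 and 12.79 in the controls. Foxo and control arrays overlapped, and the lowest Mnt array lay 0.18 above the highest control. The log2 fold change of Mnt over control was 0.28 ± 0.05 (SE), or 1.22 times, the smallest of the 6.

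CG2076, the TMBIM gene, had 12.18, 12.00 and 11.93 in the Mnt arrays, 11.51, 11.55 and 11.72 in the Foxo arrays and 11.64, 11.61 and 11.60 in the controls. The Foxo arrays spread to both sides of the narrow control range, with 2 below it and 1 above it. Mnt arrays exceeded controls by 0.42 ± 0.08 (SE) on the log2 scale, or 1.33 times.

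CG5377 had 9.54, 9.62 and 9.79 in the Mnt arrays, 9.18, 9.22 and 9.25 in the Foxo arrays and 8.80, 9.14 and 9.18 in the controls. Control replicate 1 lay well below the other 2 controls, which were close to the Foxo arrays. On the log2 scale Mnt exceeded control by 0.61 ± 0.11 (SE), or 1.53 times, and it was 0.49 without control replicate 1.

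CG13144 was the gene with the lower signal. It had 7.25, 7.03 and 7.21 in the Mnt arrays, 7.75, 7.92 and 7.76 in the Foxo arrays and 7.72, 7.88 and 7.74 in the controls. Foxo and control arrays overlapped, and every Mnt array lay at least 0.47 below the lowest control. The log2 fold change was -0.61 ± 0.09 (SE), which is 1.53 times lower in Mnt muscle.

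**Figure D1:**
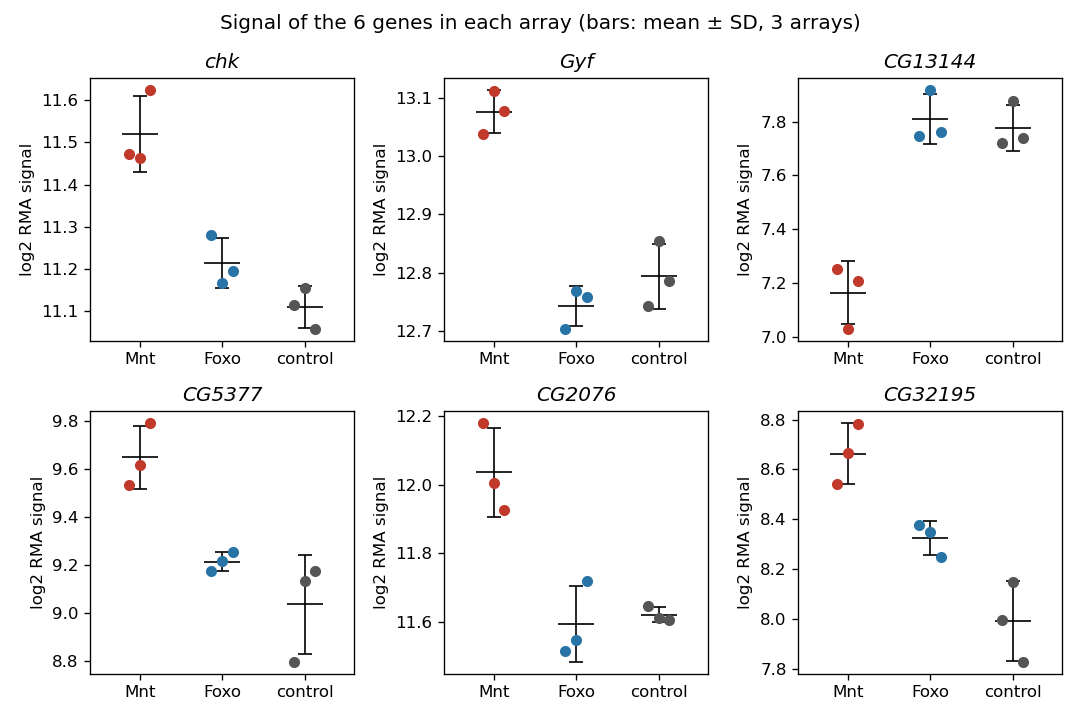
Log2 RMA signal (vertical axis, a separate range for each gene) of the 6 genes in the Mnt, Foxo and control arrays; points are single arrays, and bars are the mean ± SD over 3 arrays. The Mnt arrays stand apart from both other groups in every panel, below them for CG13144 and above them for the other 5 genes, while the Foxo arrays of CG32195 lie midway.

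The rule that chose the genes names the Foxo arrays only for comparison. The set is headed as shifted in Mnt muscle alone, however, so it is not known whether Foxo values also entered the choice. Foxo was compared with control in the same fit over all genes, and the control arrays are those the choice of the genes used. None of the 6 genes passed in Foxo versus control, where 0.1% of all genes did (limma adjusted p). At an unadjusted p under 0.05 the count was 1 of 6, CG32195, against 17.8% of all genes. The arrays of Foxo and control did not overlap for 2 of the 6, chk and CG32195, against 23.6% of all genes, so this count lies near the background. The lowest Foxo array lay 0.10 above the highest control for CG32195 and 0.01 above it for chk.

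For CG32195 the log2 fold change of Foxo over control was 0.33 ± 0.10 (SE, n = 3 per group, adjusted p = 0.276), 49.6% of the difference between Mnt and control on the log2 scale. The values of CG5377 and chk were 0.18 ± 0.11 (adjusted p = 0.383) and 0.10 ± 0.06 (adjusted p = 0.361). The CG5377 value was 0.06 without control replicate 1, its lowest control. With each array centred on its median, a step that moves every gene by -0.10 in this comparison, the value of CG32195 was 0.23, that of CG5377 0.08 and that of chk 0.0016 (adjusted p = 0.990 for chk, limma).

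The other 3 genes had smaller Foxo values, -0.05 ± 0.05 for Gyf (95% interval -0.16 to 0.06), 0.03 ± 0.09 for CG13144 (-0.18 to 0.24) and -0.03 ± 0.08 for CG2076 (-0.21 to 0.15), with limma adjusted p of 0.577, 0.863 and 0.863. The median over all genes in Foxo versus control was -0.06. With centred arrays the values were -0.15 for Gyf (adjusted p = 0.192), -0.07 for CG13144 (0.543) and -0.13 for CG2076 (0.324), by limma. The sign of the CG13144 value depended on the scaling, and it was -0.00222 after a further quantile normalization.

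Mnt versus Foxo compared both overexpression groups directly, using the same Mnt arrays that chose the genes. All 6 genes had Mnt arrays apart from the Foxo arrays, against 18.1% of all genes, and all 6 had an unadjusted p under 0.05, against 13.4%. The Mnt arrays were apart from both other groups on the same side for 2.56% of all genes. They were higher than both for 1.82% of all genes and lower than both for 0.743% of all genes. Because the Mnt arrays chose the 6 genes, these shares do not bear on whether the separation holds in other flies.

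Mnt over Foxo, the log2 fold change was -0.64 ± 0.09 for CG13144 (SE over 3 arrays per group, adjusted p by limma = 0.0550) and 0.33 ± 0.05 for Gyf (adjusted p = 0.0658). Both missed the threshold, which 0.134% of all genes passed. The adjusted p was under 0.05 in 3 of 20 alternative settings for CG13144 and in 2 of 20 for Gyf. Since the Mnt arrays chose both genes, these p-values are given as part of the description.

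The other 4 differences were 0.44 ± 0.08 for CG2076 (adjusted p = 0.126), 0.31 ± 0.06 for chk (0.144), 0.43 ± 0.11 for CG5377 (0.198) and 0.34 ± 0.10 for CG32195 (0.249), all from limma. Their 95% intervals ran from 0.26 to 0.62 for CG2076, from 0.17 to 0.44 for chk, from 0.19 to 0.68 for CG5377 and from 0.11 to 0.56 for CG32195. The median over all genes was 0.04.

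**Figure D2:**
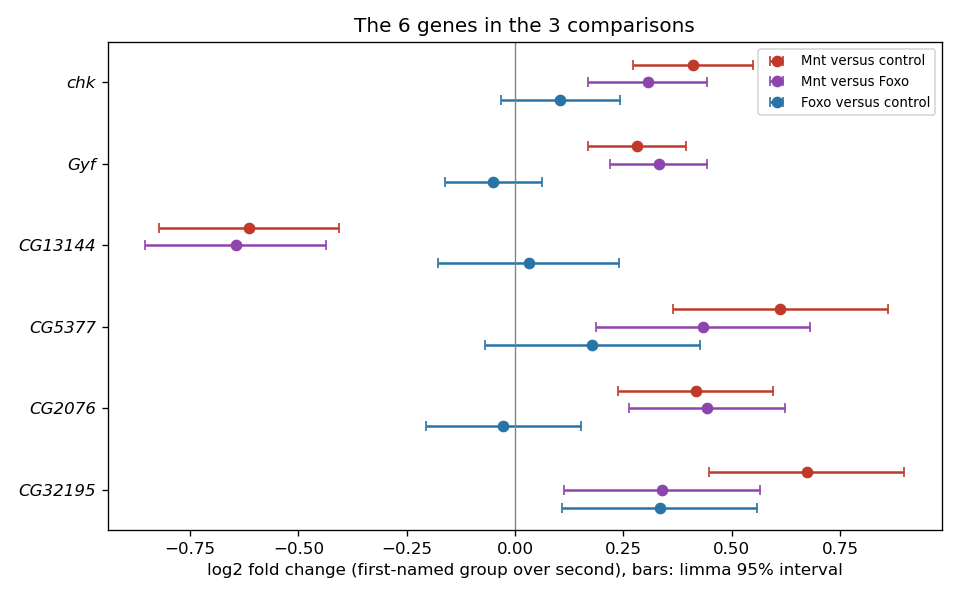
Log2 fold changes of the 6 genes (horizontal axis) in Mnt versus control, Mnt versus Foxo and Foxo versus control; bars are limma's 95% intervals without adjustment for the number of genes. For Gyf, CG13144 and CG2076 the Foxo versus control values lie at -0.05, 0.03 and -0.03, and for CG32195 the Foxo value of 0.33 lies midway between 0 and the Mnt value of 0.67.

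The 3 Mnt arrays differed in how much Mnt transcript they held, and the 6 genes did not share 1 order across them. The Mnt transcript was 2.6, 9.26 and 9.44 times the control mean in replicates 1, 2 and 3. CG32195 lay 0.55, 0.67 and 0.79 above its control mean in these arrays, CG5377 0.50, 0.58 and 0.75, and chk 0.36, 0.35 and 0.51. The highest of these values were all in replicate 3. Gyf lay 0.24, 0.32 and 0.28 above its control mean, and CG13144 lay at -0.52, -0.75 and -0.57 relative to its own. For both, the largest distance was in replicate 2. CG2076 lay 0.56, 0.39 and 0.31 above its control mean, so its largest distance was in replicate 1, the array with the least Mnt transcript. With 3 arrays no relation to the Mnt level was tested.

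**Figure D3:**
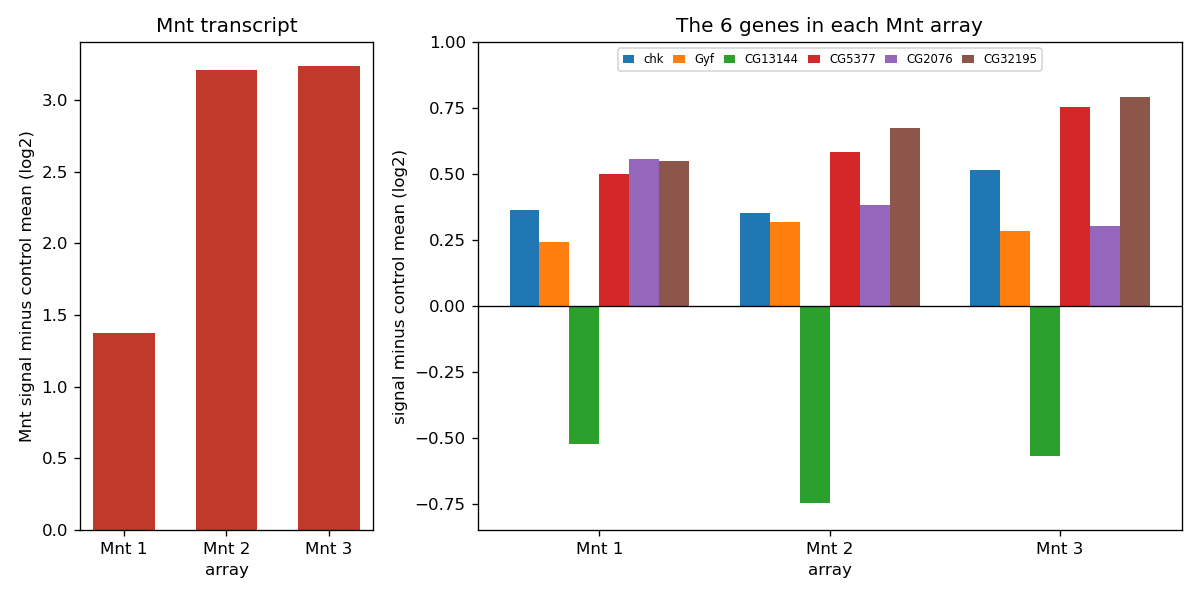
Distance from the control mean (log2) of the Mnt transcript, left, and of the 6 genes, right, in each of the 3 Mnt arrays; each bar is 1 array. Mnt replicate 1 holds the least Mnt transcript (1.38 above the control mean, against 3.21 and 3.24), and CG2076 is displaced more in it than in the other 2 arrays.

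Testis transcripts varied widely within each group. The mean signal of 17 testis genes, called the testis score here, was 7.08, 5.26 and 8.13 in the Mnt arrays, 7.53, 8.67 and 8.16 in the Foxo arrays and 7.57, 6.42 and 5.23 in the controls. All 17 testis genes had a higher mean in Mnt than in control muscle, by a median of 0.37 on the log2 scale. Without both arrays of the lowest score, Mnt replicate 2 and control replicate 3, the log2 fold changes of Mnt over control were 0.41 for chk, 0.26 for Gyf, -0.57 for CG13144, 0.70 for CG5377, 0.42 for CG2076 and 0.59 for CG32195. Leaving them out did not even out the score: the arrays left had 7.08 and 8.13 for Mnt and 7.57 and 6.42 for control. The part of testis RNA in these fold changes was not tested. The accessory gland score, a mean over 12 genes, was 9.96 in Foxo replicate 3 and at most 5.53 in the other arrays. In Foxo replicate 3 CG2076 lay at 11.72 and CG5377 at 9.25, the highest of the Foxo arrays for both. CG32195 was lowest there, at 8.25, and chk (11.19), Gyf (12.76) and CG13144 (7.76) lay between the other Foxo arrays. The part of accessory gland RNA in these values was not tested.

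Markers of 2 other tissues separated the Foxo arrays from the Mnt arrays. The mean of 14 midgut enzyme genes was 8.29, 9.36 and 9.18 in the Mnt arrays, 9.73, 9.64 and 9.54 in the Foxo arrays and 9.71, 8.80 and 8.38 in the controls, and 14 of 14 genes were lower in Mnt than in Foxo muscle. The mean of 12 haemocyte genes was 8.82, 8.90 and 8.75 in the Mnt arrays, 8.64, 8.56 and 8.66 in the Foxo arrays and 8.73, 8.79 and 8.996 in the controls, and 10 of 12 were higher in Mnt than in Foxo muscle. Neither mean separated Mnt from control arrays. The haemocyte mean did separate Foxo from control arrays. In that comparison 9 of 12 haemocyte genes were lower in Foxo muscle, with a median of -0.16, against -0.06 over all genes. Testis and accessory gland means overlapped between Mnt and Foxo arrays. Still, 16 of 17 testis genes were lower in Mnt than in Foxo muscle, with a median of -1.55. So were 11 of 12 accessory gland genes (median -1.73), whose mean was high only in Foxo replicate 3. Means over 11 fat body genes and 8 neuronal genes lay between 7.73 and 8.64 and between 8.29 and 8.62 over the 9 arrays. Of neuronal genes 7 of 8, and of fat body genes 7 of 11, were higher in Mnt than in Foxo muscle. All Foxo arrays had a lower neuronal mean than all controls. The part of these tissues in the Mnt versus Foxo and Foxo versus control differences of the 6 genes was not tested.

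Each gene was represented by 1 probe set, and 5 of the 6 genes have no other. For chk a second probe set lay at 4.27, 4.39 and 4.56 in the Mnt arrays, 4.36, 4.58 and 4.36 in the Foxo arrays and 4.44, 4.21 and 4.30 in the controls. These signals lay near the lower quartile of all probe sets, which was 4.18 to 4.31, and the groups overlapped. The Mnt versus control difference of that probe set was 0.09, so both probe sets of chk together had a mean difference of 0.25, 1.64 times smaller than the main probe set alone.

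Neighbouring genes on the chromosome were examined where measured. Of the 12 protein-coding genes directly beside the 6, 8 were measured, and their log2 fold changes of Mnt over control lay between -0.17 and 0.18. Next to Gyf, the synapse gene unc-13 had 0.09 ± 0.11 (SE) and the forkhead gene fd102C had -0.17 ± 0.08. The signal of fd102C was low, at 3.50, 3.59 and 3.60 in the Mnt arrays and 3.88, 3.70 and 3.62 in the controls. It was the only 1 of the 8 whose Mnt and control arrays did not overlap, as was so for 8.91% of all genes. Its Foxo arrays also lay below all controls, at 3.54, 3.52 and 3.56, with -0.20 ± 0.08 for Foxo over control. Next to CG2076, the antiviral gene Vago had 0.18 ± 0.13 and CG2061 had 0.16 ± 0.09. Next to CG13144, CG6144 had -0.06 ± 0.10, and next to CG5377 the neurexin gene Nrx-1 had -0.02 ± 0.10. CG7341 beside CG32195 had -0.03 ± 0.11, and Zip42C.1, a zinc transporter gene beside chk, had 0.03 ± 0.08. The signal of Zip42C.1 was also low, at 3.89, 3.87 and 3.87 in the Mnt arrays and 3.82, 3.79 and 3.95 in the controls. None of the 8 passed, and 0 had an unadjusted p under 0.05 by limma, against 3.54% of all genes. With 8 genes, nothing is read from these counts. One place further, where the adjacent gene was not measured, Rab2 near chk had 0.20 ± 0.06 and CG6094 near CG13144 had 0.05 ± 0.09. At the same distance, CG7054 near CG5377 had 0.03 ± 0.07 and the cytochrome P450 gene Cyp312a1 near CG32195 had 0.75 ± 0.35. The Mnt arrays of Cyp312a1 overlapped its controls, and its Foxo over control value was 0.62 ± 0.35. The 95% interval of Vago, -0.13 to 0.48, held the value of CG2076.

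**Figure D4:**
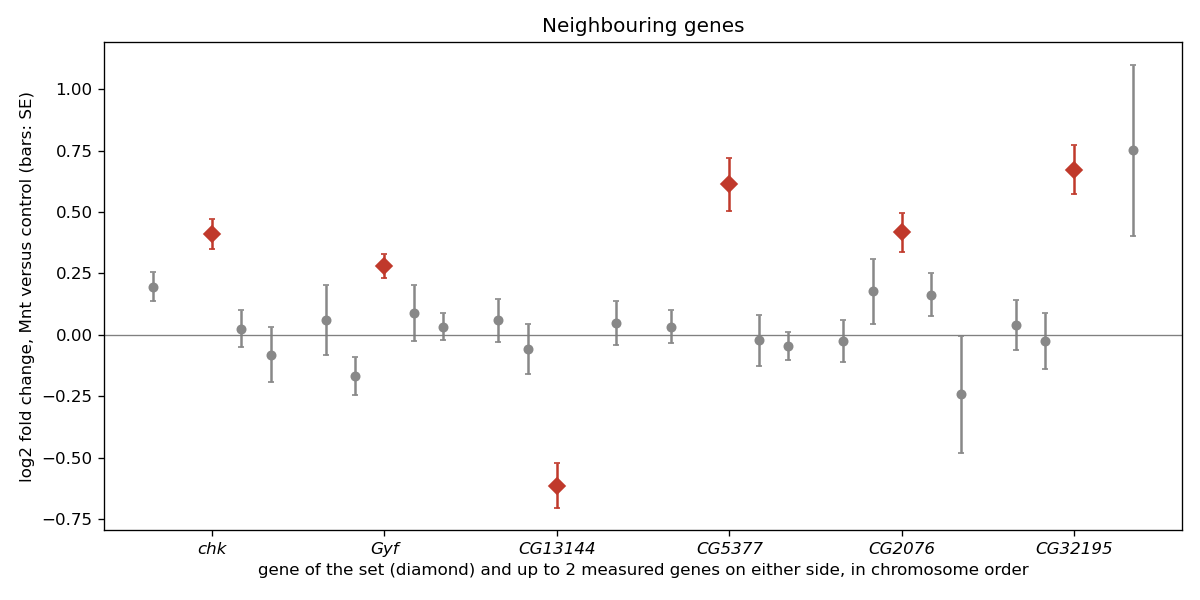
Log2 fold change of Mnt over control (vertical axis, bars are limma's SE) for each of the 6 genes (diamonds) and the measured genes up to 2 places away on either side (circles), in chromosome order. The directly adjacent genes lie between -0.17 and 0.18, and 2 places away Rab2, near chk, lies at 0.20 and Cyp312a1, near CG32195, at 0.75 with an SE of 0.35. CG6094, near CG13144, and CG7054, near CG5377, are also 2 places away and lie at 0.05 and 0.03.

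Relatives and partners of the genes were examined from lists written from general knowledge. Of 13 measured monocarboxylate transporter genes other than chk, 0 passed in either direction in Mnt versus control. By limma 0 had an unadjusted p under 0.05, against 3.54% of all genes. Their median was -0.0003, against a median of -0.0016 over all genes. The largest values were those of CG8468 (0.36 ± 0.24, SE) and CG8028 (0.32 ± 0.36), whose groups overlapped, and CG13907, of highest signal, had 0.05 ± 0.10. In Foxo versus control 0 passed and 2 of 13 had an unadjusted p under 0.05, against 17.8% of all genes, with a median of -0.14, against -0.06 over all genes.

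Of 11 measured genes for proteins that act with Gyf, in 4E-HP repression, decapping and the CCR4-NOT deadenylase, 0 passed in Mnt versus control. By limma 0 had an unadjusted p under 0.05, against 3.54% of all genes. The list had a median of 0.03 and a range of -0.14 to 0.13. The helicase gene me31B had 9.43, 9.29 and 9.45 in the Mnt arrays and 9.43, 9.62 and 9.56 in the controls, giving -0.14 ± 0.07 (SE). The deadenylase gene twin had 0.13 ± 0.18, and eIF4EHP had 0.12 ± 0.09. In Foxo versus control the median of the list was -0.04.

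Of the other TMBIM genes listed, 3 were measured, and 0 passed or had an unadjusted p under 0.05 by limma, against 3.54% of all genes for the latter. In Mnt versus control Nmda1 had 0.04 ± 0.07 (SE), CG33673 had -0.03 ± 0.13, and BI-1, the Bax inhibitor gene, had 0.01 ± 0.06. The signal of CG33673 was low, at a mean of 4.28 in the Mnt arrays and 4.31 in the controls. Of 42 measured ecdysteroid kinase-like genes other than CG32195, 0 passed and 1 had an unadjusted p under 0.05, against 3.54% of all genes, with 21 above and 21 below 0 and a median of -0.0029. CG9259 and CG11891 had larger values than CG32195, 0.99 ± 0.84 and 0.77 ± 0.42, but their groups overlapped. For example, CG9259 lay at 8.25, 9.54 and 8.73 in the Mnt arrays and at 9.98, 7.47 and 6.10 in the controls. CG10550, the list's gene of highest signal, had -0.22 ± 0.09. In Foxo versus control this list had 31 of 42 genes above 0 and a median of 0.21, against -0.06 over all genes, with 0 called and 8 of 42 at an unadjusted p under 0.05, near the 17.8% of all genes. In the same comparison 13 of 14 midgut genes and 17 of 17 testis genes were above 0, with medians of 0.51 and 2.11, and their part in the list's values was not tested.

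**Figure D5:**
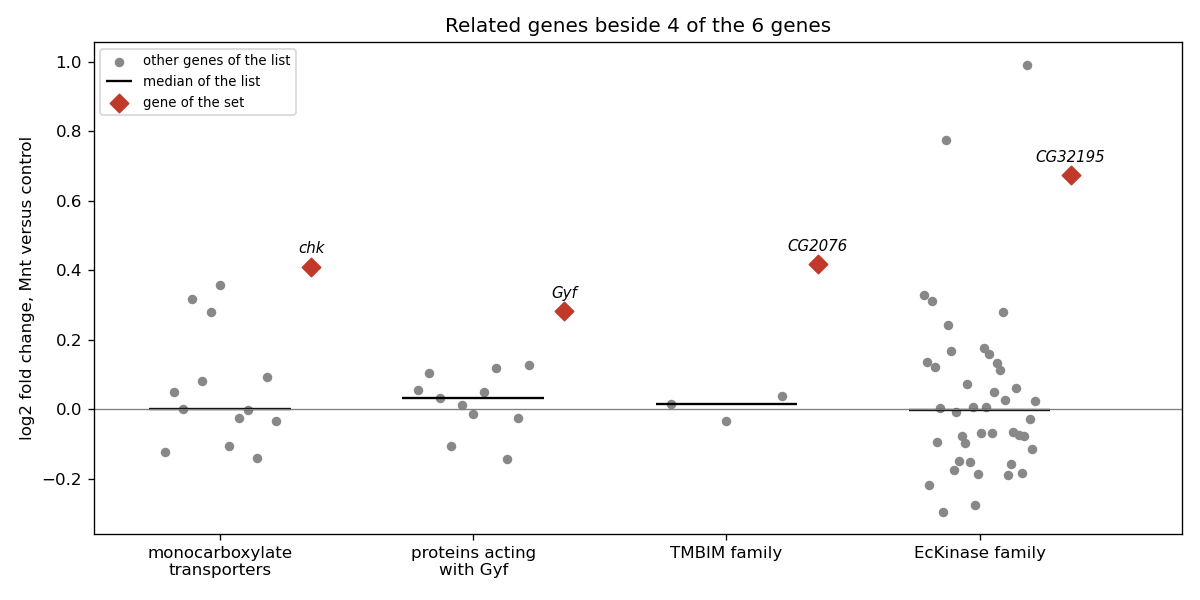
Log2 fold change of Mnt over control (vertical axis) for chk, Gyf, CG2076 and CG32195 (diamonds) and for the measured genes of the list each belongs with (circles), with the median of each list as a line. The medians of the 4 lists lie between -0.0029 and 0.03, and 2 genes of the ecdysteroid kinase-like list, CG9259 and CG11891, lie above CG32195.

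A list of Mnt, Max, Myc, Mondo and related or partner genes had 6 measured genes other than Mnt. Myc was not measured. Of these 6, 0 passed in Mnt versus control. Max and Mondo, 2 of them, had an unadjusted p under 0.05 by limma, against 3.54% of all genes. The 6 values were -0.22 (Max), -0.20 (Mondo), -0.19 (bigmax), -0.09 (pont), -0.08 (rept) and 0.22 (Mitf). Their median was -0.14. Mnt itself had 2.61 ± 0.43 (SE, limma adjusted p = 0.450). Max, its partner, lay at 8.86, 8.67 and 8.61 in the Mnt arrays and at 8.90, 8.89 and 8.998 in the controls, a log2 fold change of -0.22 ± 0.08. The Foxo arrays of Max also lay below all its controls, with -0.16 ± 0.08 for Foxo over control. They overlapped its Mnt arrays, with -0.06 ± 0.08 for Mnt over Foxo. The highest signal of the list outside Mnt was that of Mondo, a sugar sensor, with -0.20 ± 0.06 for Mnt and -0.02 ± 0.06 for Foxo over control. Mitf, a regulator of lysosomal genes, was above 0 in Mnt versus control, at 0.22 ± 0.15.

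The genes whose signals ran most like those of the 6 over the 9 arrays were named by Pearson's correlation, a measure that the Mnt separation itself raises. For Gyf these were l(3)neo38 (r = 0.980), the cadherin gene Cad87A (0.952) and Slip1 (0.949). For CG2076 they were the capsid-like gene Arc1 (0.946), the kinase gene Hipk (0.938) and the DNA polymerase gene PolI (0.912). For CG5377 they were Irbp18, a bZIP factor (0.947), CG4942 (0.946) and the deubiquitinase gene CYLD (0.913). These 9 genes all had Mnt arrays above those of both other groups.

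For CG13144 the nearest were Tom20 (r = 0.948), the RNA-binding protein gene caz (0.942) and mge (0.922), over 9 arrays. Tom20 and mge, which encodes Tom22, are receptor subunits of the mitochondrial import pore. Their log2 fold changes of Mnt over control were -0.30 ± 0.05 and -0.26 ± 0.07 (SE), and that of caz was -0.07 ± 0.04. For chk and CG32195 the nearest gene was the other of the pair (r = 0.941). The next for chk were orb (0.921), whose signal was low at a mean of 3.10 in the Mnt arrays and 2.90 in the controls, and Rab2 (0.909). For CG32195 the next were CG40298 (0.878) and Cda5 (0.872), and the Mnt arrays of Cda5 overlapped those of the other groups.

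Ordered by the size of limma's moderated t in Mnt versus control, a description since this order rests on the arrays that chose them, the 6 genes took places 3 (CG32195), 4 (chk), 5 (CG13144), 9 (Gyf), 11 (CG5377) and 13 (CG2076) among 11982. Genes among the first 13 that are not in the set include CG5569 and Mal-A5, which were as low in the Foxo arrays as in the Mnt arrays (-0.49 and -0.50 for Foxo over control, -0.50 and -0.49 for Mnt over control). Mnt itself was among them, and so was Arc2, at 0.85 for Mnt over control and -0.49 for Foxo over control. Tom20, TFAM and GstD9 ranked among them too, with -0.30, -0.26 and 0.65 for Mnt over control and -0.05, -0.17 and 0.19 for Foxo over control. The first 2 places beyond the set, CG40298 and l(3)neo38, had 0.78 ± 0.15 and 0.50 ± 0.10 (SE) for Mnt over control.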

How the data were processed

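The authors deposited log2 signals of 18952 probe sets on 9 Affymetrix Drosophila Genome 2.0 arrays, made with RMA per the submitters' processing notes; no version or definition of the probe sets is named. Arrays have no sequencing depth, and 3 arrays per group limit the precision. The 183 control probe sets were left out. The platform annotation gives 1 gene for 13647 probe sets, several for 402 and lists none for 4720. Of the first, 13544 matched the Release 6 plus ISO1 MT annotation, used for names, chromosomes and neighbours. Where a gene had several probe sets, the one with the highest mean was used, giving 11982 genes.

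Groups and replicate numbers came from the titles. All 9 arrays entered 1 limma 3.58.1 fit in R 4.3.3 (lmFit, eBayes with an intensity trend, 6 residual degrees of freedom). Tests were two-sided, with Benjamini-Hochberg adjusted p under 0.05 over all genes as the threshold. Errors are SEs from limma or SDs over 3 arrays. An exact permutation test of 3 arrays against 3 cannot give a p under 0.1. The fit was run on simulated data with independent noise and a log2 change of 1 in 200 genes. That change is larger than any of the 6 genes showed, so the simulation does not cover differences of their size. The 6 genes and all lists were chosen with earlier results of these data known. Named besides them were Mnt and foxo, the 3 genes of highest Pearson correlation with each, adjacent genes, and for each list the 2 largest differences in Mnt versus control and the gene of highest signal; eIF4EHP, all TMBIM genes, genes 2 places away and the first 15 genes by moderated t were named after their values were seen. Alternatives were a block for the replicate number, a fit of only the arrays compared, no trend, quantile normalization, median centring, a filter on dim genes, other uses of probe sets, each array left out, and, chosen after seeing the data, the testis score as a covariate and leaving out both arrays of its lowest values.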

Additional observations from a re-analysis of the deposited data

How the results depend on the processing

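For Mnt versus control, all 120 values of the 6 genes over 20 alternatives kept their direction, which the choice of the genes fixes, and 0 were called. The value of chk was 0.25 with the mean of both its probe sets. Over all genes, the count in Mnt versus control was 0 in each alternative except that without Mnt replicate 1, where Mnt itself was called, so its range without 1 array was 0 to 1. For Foxo versus control, 115 of 120 values kept their sign. CG13144 turned to -0.0718 with centred arrays, -0.00222 after quantile normalization, -0.0508 with the testis score in the model and -0.0227 without Foxo replicate 2 (range without 1 array -0.0227 to 0.0801), and CG2076 turned to 0.0126 without Foxo replicate 1 (range -0.0896 to 0.0126). For Mnt versus Foxo all 120 values kept their direction and 5 were called, 3 of CG13144 and 2 of Gyf: both without the dimmest 40% of genes and after quantile normalization, and CG13144 with centred arrays. The counts over all genes in Foxo versus control (12) and Mnt versus Foxo (16) were 0 and 1 with the replicate block, 0 and 0 with only the arrays compared, 4 and 5 without the trend, 28 and 31 with centred arrays, 19 and 27 with every probe set, 7 and 6 with the testis score in the model, and 0 and 0 without both arrays of its lowest values. Of the 16 in Mnt versus Foxo 12 were higher and 4 lower, and with centred arrays 27 were higher and 4 lower. Foxo versus control gave 2 without probe sets ending in _s_at, _x_at or _a_at. Without 1 array they ranged from 0 to 13 and from 0 to 14. The counts were 0 without control replicate 2 in both and 0 without control replicate 3 in Foxo versus control, and the cause was not tested. Over all genes, deviations from the group means correlated at -0.703 to 0.106 in the 9 pairs of same-numbered arrays, so the numbers were not taken as pairs. Differently numbered arrays reached 0.702 (Mnt replicate 3 with control replicate 1). This check cannot show whether same-numbered arrays were handled together. With the block the Mnt versus Foxo adjusted p by limma was 0.218 for CG13144 and 0.179 for Gyf. The second chk probe set, fd102C, Zip42C.1, CG33673 and orb lay near or below the lower quartile of all probe sets, so background limits their values.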

Other observations

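Rab2, a small GTPase of the early secretory pathway, lies 2 protein-coding genes from chk and was also the third most similar gene to it over the 9 arrays. It had 8.25, 8.13 and 8.25 in the Mnt arrays, 8.01, 8.02 and 7.98 in the Foxo arrays and 8.01, 8.03 and 8.004 in the controls. The Mnt arrays were the highest 3, and the Foxo and control arrays spanned the same narrow range. The log2 fold change of Mnt over control was 0.20 ± 0.06 (SE, n = 3 per group), which did not pass. The gene between them, CG45092, is not named by a probe set of its own in the annotation used here. Rab2 was singled out after its values were seen.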
